A study of Homo sapiens with 12 samples.

Results

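The short arm of chromosome 8, called 8p, was followed here as a region of the genome. Its members are every site of the sequence CCGG on chromosome 8 that lies below position 44000000 of the human build hg19 and that was listed in at least 1 library. There were 15096 such sites, of 1019951 listed anywhere, and 996035 of those lay on chromosomes 1 to 22 and X. The site numbers of the deposited lists run along the reference, and by them 8p holds 37258 reference sites between its first and last listed site. The listed sites ran from position 16989 to position 43805445, and the next listed site on the chromosome was at 46868127, in the long arm (8q). That gap is the widest between neighbouring listed sites on chromosome 8, so the rule cuts the chromosome at its centromere.

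The assay was HELP-tagging, in which genomic DNA is cut with a restriction enzyme, a short tag is taken at each cut end, and the tags are sequenced and counted per CCGG site. MspI cuts CCGG whether or not its inner cytosine is modified, so the number of MspI tags over a region follows how much of that DNA is present and how well its sites are recovered. HpaII cuts the same sequence only where the inner cytosine is unmodified, so HpaII tags set against MspI tags from the same DNA read the lack of methylation. In tumours, whole chromosome arms are often lost or gained together. Loss of 8p is known from many carcinomas, clear cell renal cell carcinoma among them, and the outer part of the arm carries a family of defensin genes bordered by long, nearly identical repeats.

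The study used 2 cell lines of clear cell renal cell carcinoma (ccRCC). From them came 6 DNA samples, each cut with both enzymes, which gives 12 libraries. The groups were 786 AA-treated (2 DNA samples), 786 control (1), 769 AA-treated (2) and 769 control (1). AA stands for ascorbic acid, which aids TET enzymes in oxidising methylated cytosine. The labels give neither a dose nor a time, and name no genetic change made to the lines. They do not say whether the 2 AA numbers mark separate cultures, so p-values measure only the spread between these DNA samples, which may be technical. With 1 line of each kind, a difference between 786 and 769 is a difference between these 2 lines.

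Libraries held between 189704 and 12442031 tags in all. The 786 control HpaII library was the shallowest, with 1225 tags on 8p at 332 sites, while the other 5 HpaII libraries had between 29716 and 90532 tags there and the 6 MspI libraries between 44824 and 157165. The 769 control HpaII library had 71847 tags on 8p, but at only 1717 sites, against 4400 and 2187 in the HpaII libraries of the AA-treated samples of 769. Single sites were thinly covered, and only 100 sites of 8p had 10 or more tags in each MspI library. Tags were therefore summed over the whole arm, over bins of 1 Mb and 100 kb, and over CCGG clusters, which are runs of listed sites no more than 300 bp apart that span at least 10 reference sites. Tags were amplified over 18 PCR cycles without molecular identifiers, so intervals from counts cover counting error only.

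The arm was present at a lower level in 786 than in 769. MspI tags on 8p made up 0.789% and 0.791% of the tags on chromosomes 1 to 22 and X in the 2 AA-treated samples of 786 and 0.761% in its control. In 769 they made up 1.42% and 1.47% in the AA-treated samples and 1.38% in the control. Every sample of 786 was below every sample of 769, and the gap was many times wider than the spread within a line. The mean was 0.780% ± 0.0170 in 786 and 1.42% ± 0.0485 in 769 (SD, n = 3 each), a fold of 0.548 and a log2 difference of -0.87. The 95% Wilson intervals were narrow beside this gap, from 0.755% to 0.767% in the 786 control and from 1.37% to 1.38% in the 769 control. An exact permutation test of the line labels, two-sided, gave p = 0.1, the smallest that 3 samples against 3 can give.

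The difference was of the same size with and without AA. The 786 AA-treated samples stood at 0.546 of the 769 AA-treated samples, and the 786 control stood at 0.553 of the 769 control. Over all 9 pairings of a 786 sample with a 769 sample, the fold lay between 0.517 and 0.576. A share does not tell fewer copies of the arm in 786 from more copies in 769, and fewer copies in every cell cannot be told apart from a mixture of cells.

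The long arm of the same chromosome did not follow. MspI tags on 8q made up 3.995%, 3.87% and 3.90% of tags in 786 AA replicate 1, AA replicate 2 and control, and 3.89%, 3.89% and 3.84% in 769 AA replicate 1, AA replicate 2 and control. The 2 lines overlapped there, with means of 3.92% ± 0.0643 in 786 and 3.87% ± 0.0312 in 769 (SD, n = 3 each) and a log2 difference of 0.02. The ratio of MspI tags on 8p to those on 8q, which needs no library total, was 0.199 ± 0.00470 in 786 and 0.368 ± 0.00991 in 769 (SD, n = 3 each). Its fold between lines was 0.541, with p = 0.1 by the exact permutation test.

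**Figure D1:**
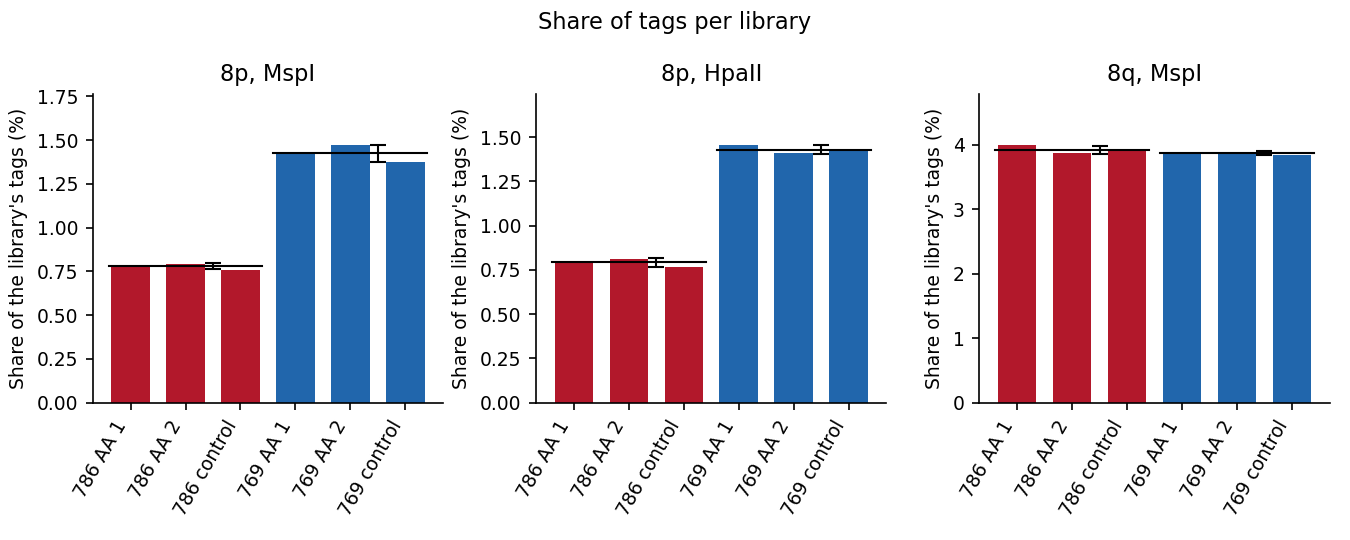
Share of each library's tags (%) on 8p in MspI libraries, on 8p in HpaII libraries and on 8q in MspI libraries, 1 bar per DNA sample, with the mean (line) and SD (bar, n = 3) of each line. On 8p every 786 bar stands below every 769 bar with both enzymes (MspI means 0.780% and 1.42%), while the 8q bars of the 2 lines overlap.

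Among all arms, 8p showed the lowest MspI share in 786 relative to 769. In all 41 units were compared: both arms of 18 chromosomes, split at the widest gap between listed sites, and 5 chromosomes (13, 14, 15, 21 and 22) taken whole, as their long arms. Of these, 18 had all 3 samples of 786 below all 3 of 769 and 14 had all 3 above. The next lowest arm was Xq, with a log2 difference of -0.54. At the other end stood 5p at 0.69 and 3p at 0.60 (1.56% ± 0.0151 of tags in 786 and 1.035% ± 0.0337 in 769, SD, n = 3 each). Set against 3p, an arm whose loss is the best known change of ccRCC, MspI tags on 8p were 0.499 ± 0.00635 of the tags on 3p in 786 and 1.38 ± 0.0623 in 769 (SD, n = 3 each). Set against 9p they were 1.21 ± 0.0312 in 786 and 1.96 ± 0.0154 in 769. In both cases the lines did not overlap (exact permutation p = 0.1 for each, over 3 arms compared with each of the 2 enzymes).

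**Figure D2:**
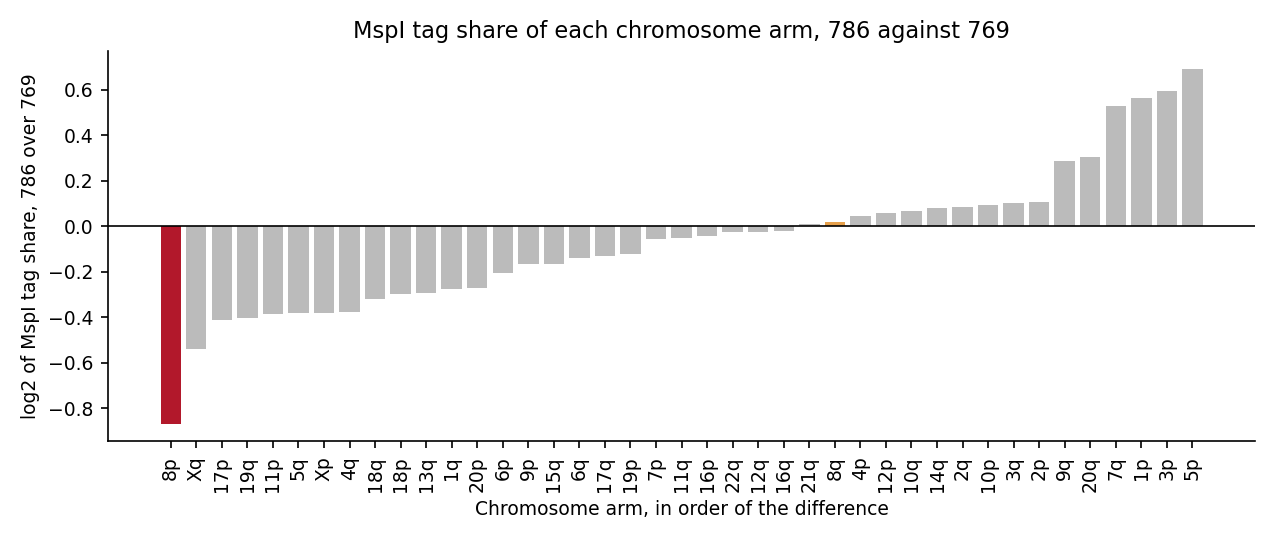
log2 of the MspI tag share of each of 41 chromosome arms (5 chromosomes taken whole), 786 over 769 (means of 3 DNA samples each), in order of the difference. The bar of 8p (dark red) is the lowest at -0.87, and that of 8q (orange) lies near 0.

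The deficit ran over the whole arm. Of the 44 bins of 1 Mb, 34 were called lower in 786 and 0 higher (edgeR quasi-likelihood test, adjusted p under 0.05), with agent as a covariate and adjustment over 2855 bins of the genome. Over the genome, 13.2% of bins were called lower and 12.3% higher. All 44 bins had a log2 difference below 0, with a median of -0.88, quartiles of -0.96 and -0.72, and a median SE of 0.15. For comparison, the median over all 2855 bins was 0.02. In 37 of the 44 bins all 3 samples of 786 lay below all 3 of 769, against 20.2% of bins over the genome. The called bins formed 9 runs, the longest of them 8 bins at chr8:6000001-14000000, and 2 of 7 bins at chr8:17000001-24000000 and chr8:25000001-32000000.

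The bin with the smallest error, chr8:22000001-23000000, gives the arm's level in detail. It had 64.2, 62.9 and 60.5 MspI tags per 100000 in 786 AA replicate 1, AA replicate 2 and control, against 112, 110 and 117 in 769 AA replicate 1, AA replicate 2 and control. The lines did not overlap, and the log2 difference was -0.85 ± 0.08 (SE; edgeR adjusted p = 1.59e-06).

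The 10 bins that were not called held 335 to 599 reference sites each, while called bins held 375 to 2082. Their log2 differences ranged from -0.92 to -0.29, and in each of them the lowest of the 6 MspI libraries had at most 311 tags. The 3 highest bins of the arm were all of this kind. The bin chr8:34000001-35000000 had 2.55, 1.65 and 1.01 MspI tags per 100000 in 786 AA replicate 1, AA replicate 2 and control, against 2.14, 1.81 and 2.04 in 769 AA replicate 1, AA replicate 2 and control. Here the lines overlapped, and the log2 difference was -0.29 ± 0.42 (SE; edgeR adjusted p = 0.675). The bins chr8:24000001-25000000 and chr8:32000001-33000000 had log2 differences of -0.29 ± 0.30 and -0.34 ± 0.28 (SE), with overlapping lines as well. In the 26 bins with at least 500 tags in every MspI library, the differences were tighter, from -1.25 to -0.54 with a median of -0.90 and an SD of 0.16.

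The 3 lowest bins lay at different places along the arm. At chr8:7000001-8000000 there were 11.4, 13.1 and 9.31 MspI tags per 100000 in 786 AA replicate 1, AA replicate 2 and control, against 23.5, 31.0 and 25.2 in 769 AA replicate 1, AA replicate 2 and control. The log2 difference was -1.25 ± 0.16 (SE; edgeR adjusted p = 4.28e-05). In this bin 88.5% of listed sites had a count that was not whole, the form that tags shared among several matching places would take, against 57.7% at chr8:12000001-13000000 and at most 28.6% in every other bin of the arm. The part of such sites in the value was not tested. The other 2 were chr8:29000001-30000000 at -1.15 ± 0.14 and chr8:11000001-12000000 at -1.08 ± 0.10 (SE).

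Within the arm, few bins stood apart from the arm's own level. Scaled to each library's tags on 8p, an alternative chosen after seeing the data, 2 of the 44 bins were called higher in 786 and 1 lower by edgeR, while 84.8% of the bins of the genome were called in either direction on that scale. The 2 higher bins were neighbours, chr8:27000001-28000000 at 0.32 ± 0.13 (SE; adjusted p = 0.0263) and chr8:28000001-29000000 at 0.27 ± 0.11 (adjusted p = 0.0329). On the genome scale they were still lower in 786, at -0.54 ± 0.12 and -0.60 ± 0.11 (SE). The 1 lower bin was chr8:7000001-8000000, where most counts were not whole, at -0.38 ± 0.16 (SE; adjusted p = 0.0357). As most bins of the genome were called on this scale, the adjustment over all bins changed p little. These calls on 8p are therefore close to calls on an unadjusted p.

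At a finer scale, 53 of the 235 testable bins of 100 kb on 8p were called lower in 786 and 0 higher, where 1.96% of bins of that size over the genome were called lower. Of the 235, 223 had a log2 difference below 0, with a median of -0.86.

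The level changed at the centromere. The innermost bin of 8p, chr8:43000001-44000000, had 12.03, 13.7 and 11.25 MspI tags per 100000 in 786 AA replicate 1, AA replicate 2 and control, against 24.4, 23.4 and 23.4 in 769 AA replicate 1, AA replicate 2 and control. Its log2 difference was -0.95 ± 0.14 (SE; edgeR adjusted p = 0.0001735). The first tested bin of 8q, chr8:47000001-48000000, had 44.1, 40.7 and 34.6 tags per 100000 in 786 AA replicate 1, AA replicate 2 and control, against 23.5, 22.4 and 19.6 in 769 AA replicate 1, AA replicate 2 and control. The lines did not overlap on either side, and the order was turned round, with a log2 difference of 0.86 ± 0.11 on the 8q side (SE; edgeR adjusted p = 4.5e-05). The next 4 bins of 8q were also called higher in 786, with log2 differences from 0.57 to 1.47. The bin after them stood at 0.24 ± 0.11 (SE) and was not called. Of the 100 tested bins of 8q, 6 were called higher and 0 lower, and their median log2 difference was 0.14.

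**Figure D3:**
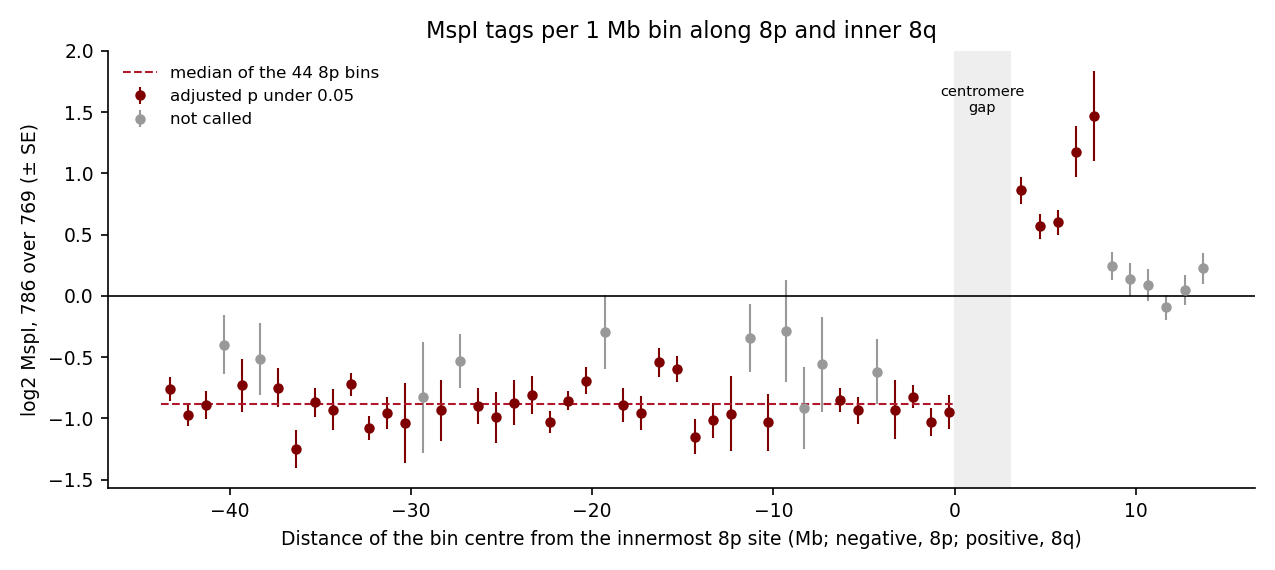
log2 of MspI tags, 786 over 769, with its SE, for each 1 Mb bin against the distance of its centre from the innermost 8p site (Mb; 8p to the left, 8q to the right; dark red, edgeR adjusted p under 0.05; grey, not called; dashed line, median of the 44 bins of 8p). The bins of 8p lie below 0 along the whole arm around -0.88, and the first 5 tested bins of 8q lie above 0.

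MspI tags on 8p were lower in 786 in every class of site. Sites were sorted by the number of reference sites from the first to the last listed site in their 1 kb window. Unlisted reference sites outside that span were not counted, so a class can understate the number in the window. On 8p the log2 of the MspI share, 786 over 769, was -0.68 for windows of 1 to 2 sites, -0.90 for 3 to 7, -0.996 for 8 to 15 and -1.14 for 16 or more. In the rest of the genome the same classes stood at 0.20, 0.01, -0.12 and -0.19. The 8p value less that of the rest was thus -0.88, -0.91, -0.88 and -0.95, close to even over the 4 classes.

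No 1 Mb bin of 8p passed the test for AA in the MspI libraries. By edgeR, 0 of the 44 bins were called, where 0.0% of 2855 were called over the genome and DESeq2 called 0 on 8p, and 1 bin of 8p had an unadjusted p under 0.05, against 105 of 2855. Over the arm as a whole the AA-treated samples had slightly more MspI tags than the control of their line in 4 of 4 cases. The mean log2 difference within lines was 0.06, a fold of 1.05, with p = 0.1111 by an exact permutation test within lines, the smallest that this design can give. That shift is small beside the -0.87 between the lines.

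HpaII tags on 8p were lower in 786 by about as much as MspI tags. They made up 0.800% and 0.812% of HpaII tags in the AA-treated samples of 786 and 0.765% in its control, against 1.455% and 1.41% in the AA-treated samples of 769 and 1.42% in its control. The mean was 0.792% ± 0.0245 in 786 and 1.43% ± 0.0234 in 769 (SD, n = 3 each), and the lines did not overlap. The HpaII share divided by the MspI share was therefore near 1 in all 6 DNA samples. It was 1.01 and 1.03 in the AA-treated samples of 786 and 1.01 in its control, against 1.02 and 0.958 in the AA-treated samples of 769 and 1.04 in its control. The means were 1.015 ± 0.0105 in 786 and 1.005 ± 0.0410 in 769 (SD, n = 3 each), with overlapping lines. The log2 difference between lines was 0.02 (exact permutation p = 0.9), and that between AA-treated and control within lines was -0.02 (exact permutation p = 0.778). A ratio of 1 means that the arm took the same part of HpaII as of MspI tags, that is, a mean lack of methylation like the genome's, and not that its sites were fully unmethylated.

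Behind this even mean, the ratio varied widely along the arm. Per 1 Mb bin it ranged from 0.426 to 2.61 in 786 AA replicate 1 and from 0.299 to 1.71 in 786 AA replicate 2. In 769 it ranged from 0.0278 to 1.66 in AA replicate 1, from 0.0129 to 3.061 in AA replicate 2 and from 0 to 3.57 in the control. The 786 control ranged from 0 to 5.105, on 1225 HpaII tags for the whole arm. Setting that library aside, 9 of the 44 bins had a ratio above 1 in all 5 other DNA samples (20.5%, against 24.5% of 2877 bins over the genome), and 1 bin had a ratio below 0.5 in all 5 (2.27%, against 4.73%). That bin was the innermost, chr8:43000001-44000000, with ratios of 0.444 and 0.413 in the AA-treated samples of 786, against 0.138 and 0.0129 in the AA-treated samples of 769 and 0.0372 in its control. In windows of 100 kb, 49 of the 257 tested bins of 8p were above 1 in all 5 (19.1%, genome 19.7%) and 20 were below 0.5 in all 5 (7.78%, genome 11.9%).

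**Figure D4:**
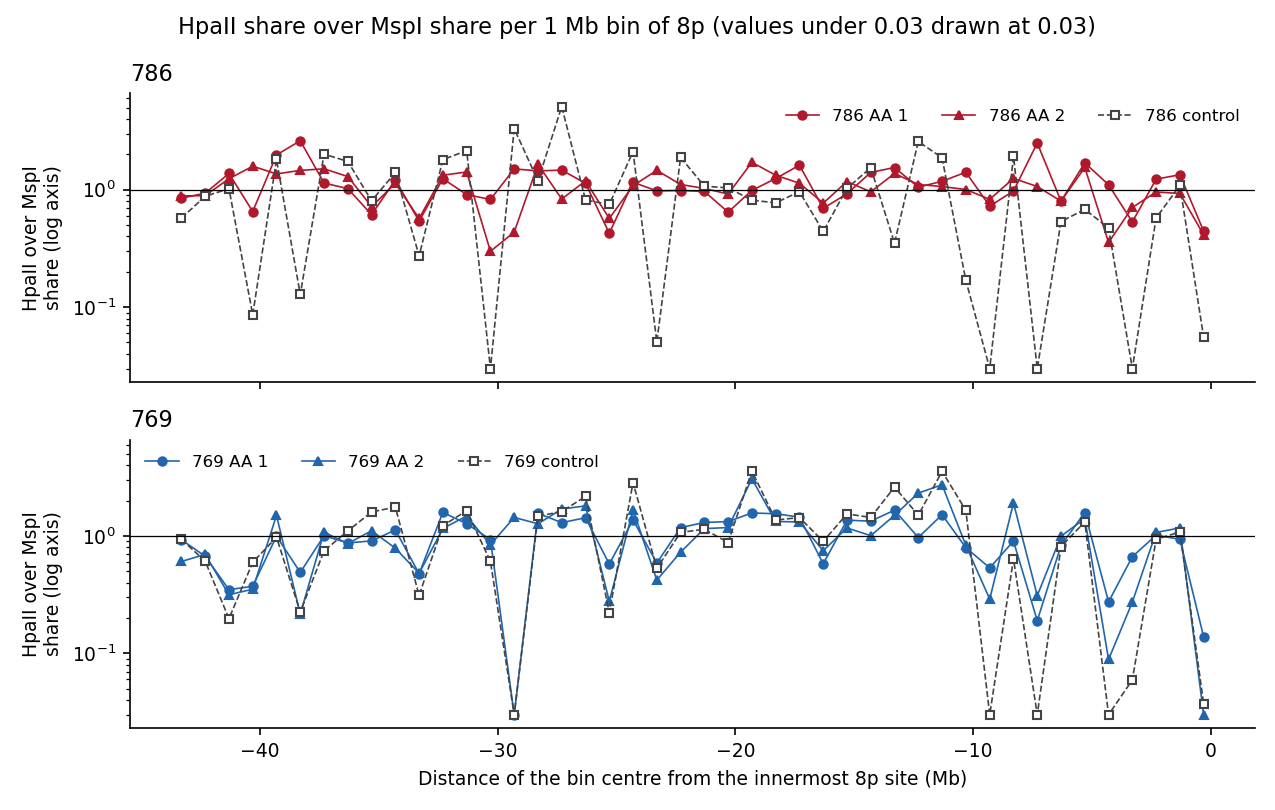
HpaII share over MspI share (log axis) of each 1 Mb bin of 8p against the distance of its centre from the innermost 8p site (Mb), 786 above and 769 below; filled marks, AA-treated samples; open squares, controls; values under 0.03 are drawn at 0.03. Most bins lie around 1 in both lines, with medians from 0.848 to 1.08 over the 6 samples, and the innermost bin lies below 0.5 in all 6 samples.

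Dense CCGG clusters were mostly open to HpaII on 8p. Of 236 clusters, 129 had at least 20 MspI tags in each MspI library. Leaving out the 786 control HpaII library, 89 of the 129 (69.0%, genome 60.2%) had a ratio above 0.5 in all 5 other DNA samples. Their median ratio was 2.28 and 2.56 in the AA-treated samples of 786, and 2.90 and 2.67 in the AA-treated samples of 769 against 3.90 in its control. Another 10 (7.75%, genome 9.44%) were below 0.1 in all 5, that is, closed to HpaII in both lines. These shares of classes set on the ratio itself are given as a description, with no test.

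The open cluster with the most reference sites was chr8:37552785-37556302 with 60 of them. It had 321 and 186 HpaII tags in the AA-treated samples of 786 and 6 in its control, against 215 and 316 in the AA-treated samples of 769 and 263 in its control. The ratios, 1.19, 1.08 and 1.42 in that order for 786 and 0.687, 1.91 and 1.15 for 769, overlapped between lines. The closed clusters included chr8:1792168-1792792, with 61, 186 and 146 MspI tags in 786 AA replicate 1, AA replicate 2 and control, 138, 102 and 273 in 769 AA replicate 1, AA replicate 2 and control, and 0 HpaII tags in all 6 samples. Another, chr8:620761-621900 with 25 reference sites, had HpaII tags in 769 AA replicate 1 alone, 2 of them, beside 98 MspI tags. Of the 10 closed clusters, 5 lay below chr8:2000000 and the other 5 were chr8:8175718-8176464, chr8:28573779-28574962, chr8:28928617-28930075, chr8:38831544-38832427 and chr8:38965082-38965505.

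Between the lines, edgeR called the HpaII to MspI ratio in 1 of the 44 bins of 1 Mb on 8p, a megabase near the outer end. That share, 2.27%, was no higher than the 2.92% of 2877 bins called over the genome. That bin, chr8:2000001-3000000, held 919 reference sites. Its HpaII share over MspI share was 1.38 and 1.24 in the AA-treated samples of 786 and 1.02 in its control, against 0.348 and 0.315 in the AA-treated samples of 769 and 0.198 in its control. All 3 samples of 786 were above all 3 of 769, and HpaII relative to MspI was higher in 786 by 2.12 ± 0.26 on the log2 scale (SE; edgeR adjusted p = 0.00576). The MspI deficit of the bin, -0.89, was that of the arm. Of the 44 bins, 4 had all 3 samples of 786 above all 3 of 769 and 4 had them below, where 12.8% of bins over the genome lay above and 10.9% below.

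The 100 kb bins inside that megabase did not pass the test on their own. Of 257 tested bins of 100 kb on 8p, 0 were called between the lines by edgeR (0.941% over the genome), 29 had an unadjusted p under 0.05 (11.3%, genome 14.01%), and DESeq2 called 18 higher and 1 lower (7.39% in all, genome 9.24%). The smallest p on 8p belonged to chr8:2800001-2900000, which had 52 and 81 HpaII tags in the AA-treated samples of 786 and 6 in its control, against 2 and 0 in the AA-treated samples of 769 and 0 in its control. Its ratios were 2.79, 4.47 and 4.65 in 786 and 0.0137, 0 and 0 in 769, without overlap, at an edgeR adjusted p of 0.0603. All 6 HpaII tags of the 786 control lay at 1 site, and 786 AA replicate 1 had 11 MspI tags in the bin. In the same megabase, chr8:2400001-2500000 had ratios of 0.520, 4.34 and 7.56 in 786 and 0.0732, 0 and 0.0162 in 769, also without overlap (edgeR adjusted p = 0.142). Far from there, chr8:39700001-39800000 had 130 and 38 HpaII tags in the AA-treated samples of 786 and 3 in its control, against 1, 0 and 0 in 769 AA replicate 1, AA replicate 2 and control (edgeR adjusted p = 0.0957). Of its tags in 786, 99.9%, 100% and 100% in AA replicate 1, AA replicate 2 and control lay at the top site of the library, beside 10 to 20 MspI tags in the bin, so its value is that of about 1 site. In the other direction, chr8:10500001-10600000 had ratios of 0.147, 0.236 and 0 in 786 and 0.340, 0.366 and 0.562 in 769 (edgeR adjusted p = 0.26). Over the 257 bins, 21 had all 786 samples above all 769 samples and 15 had them below, near the 9.47% and 7.12% found over the genome.

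Of 206 tested clusters on 8p, 1 was called between the lines, where 1.51% were called over the genome in either direction and 0.746% higher in 786. It was chr8:11470691-11471239, with 13 reference sites, and it had 7, 12 and 2 HpaII tags in 786 AA replicate 1, AA replicate 2 and control, against 0 in all 3 samples of 769. Its MspI tags were 0, 10 and 25 in 786 AA replicate 1, AA replicate 2 and control, against 104, 109 and 84 in 769 AA replicate 1, AA replicate 2 and control, so 1 of the 786 samples had no MspI tag to set its HpaII tags against. The edgeR adjusted p was 0.0431, and no cluster of 8p was called in any of the 6 fits that left out 1 DNA sample. A cluster that was higher in 769, chr8:41754132-41755207 with 23 reference sites, had 0 HpaII tags in all 3 samples of 786, against 180, 148 and 100 in 769 AA replicate 1, AA replicate 2 and control. Its MspI tags were 17, 43 and 16 in 786 AA replicate 1, AA replicate 2 and control. In 769 they were 48, 37 and 117 in that order. With 3 tags per library as the floor for the samples at 0, HpaII relative to MspI was at least 6.38-fold lower in 786. That bound is a mean over the samples of each line. It does not hold for the 786 control alone, whose HpaII library was the shallowest. The cluster did not pass the test (edgeR adjusted p = 0.0861).

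Isolated and dense sites of 8p stood differently in the AA-treated and control samples of 769. Isolated sites had 1 to 2 reference sites and dense sites 16 or more. Both were counted from the first to the last listed site in the 1 kb window. In 786 the ratio at isolated sites was 0.530 and 0.570 in the AA-treated samples, against 0.610 in the control. At dense sites it was 2.51 and 2.43, against 2.54. In 769 the isolated sites stood at 0.345 and 0.241 in the AA-treated samples, against 0.1106 in the control, and the dense sites at 2.74 and 2.06, against 3.64. Isolated over dense was 0.211 and 0.234 in the AA-treated samples of 786 and 0.241 in its control, a fold of 0.924. It was 0.126 and 0.117 in the AA-treated samples of 769 and 0.0304 in its control, a fold of 3.98. Within lines the mean log2 difference, AA over control, was 0.94 (exact permutation p = 0.333, with 0.1111 the smallest possible), and it did not pass. It rests on the 769 control, without which it was -0.11; without the 786 control it was 1.99. The rest of the genome gave folds of 1.24 in 786 and 3.20 in 769, and for the 8p ratio divided by that of the rest the log2 difference was -0.05 (exact permutation p = 1). Between lines, the isolated-to-dense ratio on 8p was 0.229 ± 0.0155 in 786 and 0.0910 ± 0.0527 in 769 (SD, n = 3 each), without overlap, a fold of 2.99 at the smallest possible exact permutation p of 0.1. Divided by that of the rest of the genome, it was 1.07 ± 0.254 in 786 and 0.878 ± 0.139 in 769 (SD, n = 3 each), with overlapping lines and a fold of 1.204 (exact permutation p = 0.3), so a line difference of this kind was not particular to 8p.

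**Figure D5:**
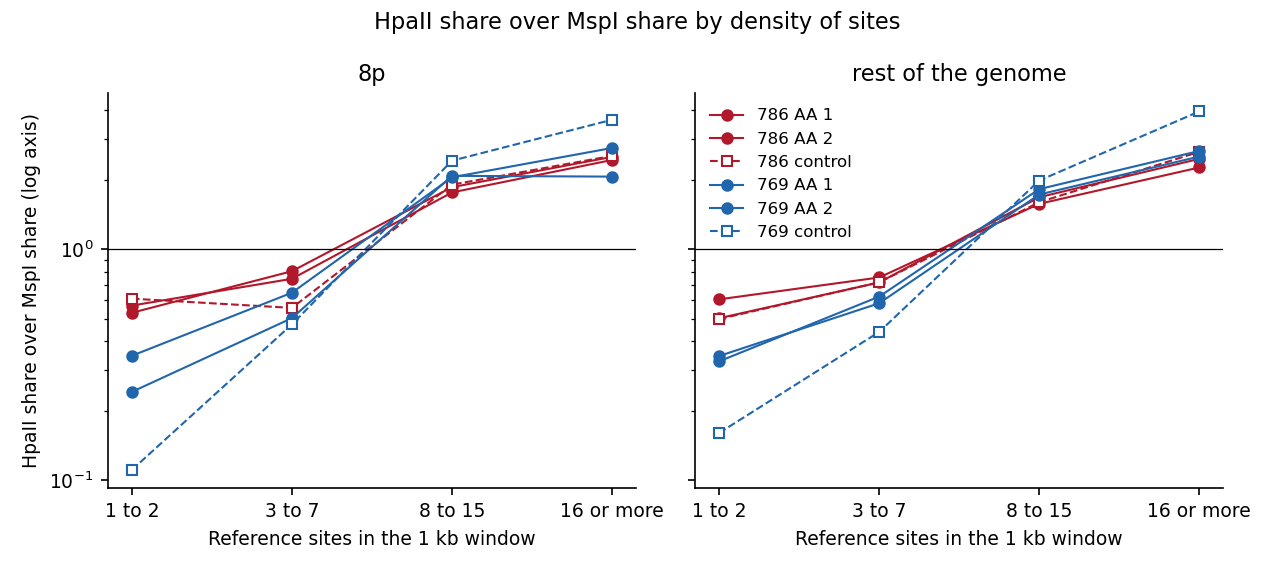
HpaII share over MspI share (log axis) by the number of reference sites from the first to the last listed site in the 1 kb window. Panels show 8p (left) and the rest of the genome (right), with 1 line per DNA sample. Filled circles are AA-treated samples and open squares are controls. On 8p, as in the rest, the 769 control has the lowest ratio at isolated sites (0.1106) and the highest at dense sites (3.64), and the 3 samples of 786 lie close together.

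In the fits over single bins, few AA calls fell on 8p. Of its 257 bins of 100 kb, edgeR called 0 for AA over both lines (0.307% over the genome), 0 in 786 (0.384%) and 2 in 769, both higher (3.58% called higher and 3.73% in either direction over the genome). It called 0 for a difference of the AA effect between the lines (0.986% over the genome). An unadjusted p under 0.05 was found in 28 bins over both lines (10.9%, against 1874 of 15623 over the genome), 42 in 786 (16.3%, genome 12.7%), 41 in 769 (15.95%, genome 18.2%) and 38 for the difference (14.8%, genome 15.3%).

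DESeq2 called more bins in each of these comparisons, on 8p as over the genome. Shares are of the bins to which it gave an adjusted p. Over both lines it called 4 higher and 0 lower (1.72%, genome 3.96%). In 786 it called 0 higher and 2 lower (1.80%, genome 2.14%), and in 769 it called 29 higher and 6 lower (13.6%, genome 14.9%). For the difference of the AA effect, 786 less 769, it called 2 higher and 10 lower (5.19%, genome 6.93%).

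Both called bins lay in the outer 2.1 Mb of the arm. The bin chr8:2000001-2100000 had 212 and 99 HpaII tags in the AA-treated samples of 769, against 0 in its control, although that control had 1214 MspI tags there and the AA-treated samples 480 and 296. With 3 tags as the floor for the control, HpaII relative to MspI was at least 70.4-fold higher with AA (edgeR adjusted p = 0.00206; 0.146 with libraries thinned to the smallest). In 786 the same bin had 571 and 152 HpaII tags in the AA-treated samples, against 2 in the control library with its 1225 tags on the arm, and ratios of 1.31 and 0.863, against 0.207. The second, chr8:1600001-1700000, had ratios of 0.921 and 0.769 in the AA-treated samples of 769, against 0.0871 in the control, a rise of 3.28 ± 0.78 on the log2 scale (SE; edgeR adjusted p = 0.036). That p was 0.0575 without 769 AA replicate 1 and 0.243 with thinned libraries. In 786 its ratios were 0.842 and 0.740 in the AA-treated samples, against 2.52 in the control on 16 HpaII tags. In 769 AA replicate 2 a single site held 81.8% of the HpaII tags of the first bin and 72.6% of those of the second. In 769 AA replicate 1 the top site held 36.3% and 31.5%. The bound of 70.4-fold is a mean over the AA-treated samples of 769. Of the 257 bins, 60 had 0 HpaII tags in the 769 control, against 6 and 40 in the AA-treated samples of 769. The part of the few sites listed in that control in these 2 calls was not tested.

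Over 1 Mb bins, 2 of the 44 were called for AA in 786 (2.57% over the genome), 1 in each direction. At chr8:16000001-17000000 the ratios were 1.47 and 0.833 in the AA-treated samples of 786, against 5.105 in its control, a log2 difference of -2.31 ± 0.56 (SE; edgeR adjusted p = 0.0496). All 57 HpaII tags of that control lay in chr8:16800001-16900000, 70.2% of them at a single site. At chr8:20000001-21000000 they were 0.977 and 1.46 in the AA-treated samples, against 0.0504 in the control, 4.45 ± 0.94 on the log2 scale (SE; edgeR adjusted p = 0.0237), and that control had 1 HpaII tag there. By edgeR the AA effect, 786 less 769, was called in 2 of the 44 bins, chr8:20000001-21000000 and chr8:30000001-31000000, both higher. Over the genome 3.51% of bins were called, 30 of them higher and 71 lower.

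Among bins that did not pass, chr8:6700001-6800000 had 270 and 94 HpaII tags in the AA-treated samples of 786 and 81 and 17 in those of 769, against 0 in the control of either line (edgeR adjusted p = 0.0594 in 769 and 0.132 over both lines). The bin chr8:19100001-19200000 went the other way in 769, with ratios of 2.18 and 1.76 in the AA-treated samples, against 17.9 in the control (edgeR adjusted p = 0.0587). Over the arm, the ratio was above the control of its line in all 4 AA-treated samples in 63 bins and below in all 4 in 22, where 22.4% of bins over the genome lay above and 7.92% below. In the 786 control 120 of the 257 bins had 0 HpaII tags, against 12 and 10 in the AA-treated samples of 786. In the 769 control 60 had 0, against 6 and 40 in the AA-treated samples of 769. The part of depth and of the sites listed per library in these counts was not tested.

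Of 206 clusters, 0 were called for AA over both lines (0.022% over the genome), and DESeq2 called 1, higher (0.485%, genome 1.65%). By line, edgeR called 0 in 786 (0.139% over the genome), 0 in 769 (0.725%) and 0 for the difference of the AA effect (0.0659%). An unadjusted p under 0.05 was found in 17 clusters over both lines (8.25%, genome 9.99%), 33 in 786 (16.02%, genome 12.5%), 16 in 769 (7.77%, genome 13.8%) and 19 for the difference (9.22%, genome 12.9%). In 3 of the 129 clusters with enough MspI tags the ratio was below 0.1 in the 769 control and above 0.5 in both AA-treated samples of 769 (2.33%, genome 2.32%). The cluster chr8:6691860-6693251 had 257 and 68 HpaII tags in the AA-treated samples of 769, against 3 in its control, and 246 and 32 in the AA-treated samples of 786, against 0 in its control. The cluster chr8:37756319-37757164 had 208 and 188 HpaII tags in the AA-treated samples of 769, against 1 in its control. At chr8:41507159-41509226 there were 83 and 78 in the AA-treated samples of 769, against 2 in its control. In 786 the last 2 had 144 and 87 tags with AA, against 1 in the control, and 113 and 59, against 8. None of the 3 passed the edgeR test over all clusters.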

How the data were processed

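The authors deposited, per library, a list of CCGG sites with estimated tag counts. These expected counts, as the deposited values show, need not be whole, and no header or label says why; 85.0% of 8p sites had whole counts in all 12 libraries (tolerance 1e-06). The build was hg19, per the submitters' processing notes, and no aligner is named there. No annotation of hg19 was used here, so bins and clusters carry no gene names.

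Column 6 of each list was summed per arm, 1 Mb bin, 100 kb bin and CCGG cluster and rounded. Shares are of tags on chromosomes 1 to 22 and X. MspI counts (at least 20 per library and 100 reference sites for 1 Mb bins) were fitted with edgeR 4.0.16 in R 4.3.3 with line and agent as terms. HpaII relative to MspI was fitted over all 12 libraries with DNA sample, enzyme, enzyme by line and enzyme by agent (3 residual degrees of freedom; 2 with agent within line), TMM scaling within each enzyme, at least 10 MspI tags in each MspI library (for clusters, over all) and 10 HpaII tags over all. p-values were adjusted by Benjamini-Hochberg over the whole genome. The SE beside an edgeR value is its absolute log2 difference divided by the square root of the test's F. The fits of 786 against 769 were tested on simulated data with 200 changed bins each. For HpaII relative to MspI in 100 kb bins, 93.5% of 8-fold changes were called, and 7 of 194 calls were false. For MspI in 1 Mb bins, 100% of 0.5-fold changes were called, and 11 of 211 calls were false. The spread was set and not taken from the data, and the HpaII changes lay only in bins above the median HpaII count. Changes in bins with few HpaII tags were thus not covered. The comparisons for AA were not simulated, so these shares do not apply to them. Arm values were tested by exact permutation, two-sided.

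Named bins and clusters are, per comparison and direction, the 5 largest called changes without overlap, filled up by smallest p; for MspI, the 3 highest and 3 lowest 1 Mb bins and each called run. Others, the open and closed clusters among them, were chosen after their values were seen. The members, bins and lists were chosen with earlier results of these data known. Alternatives were DESeq2 1.42.0, no TMM, other filters and bin sizes, thinning to the smallest library, the replicate block and leaving out each DNA sample.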

Additional observations from a re-analysis of the deposited data

Results flagged for a closer look

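In 4 results the values for AA differed between the lines, 2 of them by a test and 2 untested. Each line has 1 control. For the HpaII share over the MspI share of the whole arm, both AA-treated samples were above the control in 786 and both were below it in 769. The log2 difference between the lines' AA effects was 0.09, and that difference was not tested; the mean AA value of the arm was above 0 without 769 AA replicate 2 or without the 769 control. For the ratio of isolated to dense sites, both AA-treated samples were below the control in 786 and both were above it in 769, with a log2 difference of -2.11, which was not tested either and rests on the 769 control.

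By edgeR's interaction term over 1 Mb bins, 2 bins of 8p differed in their AA effect, where 3.51% of bins were called over the genome, 30 higher and 71 lower. At chr8:20000001-21000000 the log2 difference, 786 less 769, was 4.51 ± 1.08 (SE; adjusted p = 0.0408). The ratios were 0.977 and 1.46 in the AA-treated samples of 786, against 0.0504 in its control, which had 1 HpaII tag there, and 0.587 and 0.420 in the AA-treated samples of 769, against 0.530 in its control. At chr8:30000001-31000000 the difference was 2.65 ± 0.61 (SE; adjusted p = 0.0366). The ratios were 1.546 and 1.38 in the AA-treated samples of 786, against 0.351 in its control on 7 HpaII tags, and 1.66 and 1.497 in the AA-treated samples of 769, against 2.606 in its control. The 786 control HpaII library was the shallowest, and its part in these differences was not tested.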

How the results depend on the processing

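The MspI deficit of 8p kept its direction under every alternative run, with a log2 difference from -0.89 to -0.84 when each DNA sample was left out and -0.51 when listed sites were counted in place of tags. Of 44 bins of 1 Mb, between 31 and 36 were called with DESeq2, no TMM, no filter, the replicate block or a sample left out, 53 of 235 at 100 kb, and 3 when scaled to the tags on 8p. The bin chr8:34000001-35000000 ranged from -0.577 to 0.0713 with a sample left out and turned positive without either control.

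The log2 difference in the HpaII to MspI ratio of the arm was near 0 and changed sign between settings. Between lines it was -0.0296 with listed sites and ranged from -0.0183 (without 769 AA replicate 2) to 0.0372; for AA it was 0.16 with listed sites and ranged from -0.0644 to 0.0209, above 0 without 769 AA replicate 2 and without the 769 control. The isolated-to-dense difference for AA ranged from -0.11 to 1.99.

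Counts of calls for HpaII relative to MspI depended on the tool. For AA over both lines, 100 kb calls numbered 4 with DESeq2, 3 with no filter, and 0 to 3 with a sample left out. For AA in 769 they numbered 35 with DESeq2, 8 with no filter, 0 thinned, 0 at 1 Mb, and 3 to 7 with a sample left out. For AA in 786 they numbered 2 with DESeq2, 5 with no filter, 2 at 1 Mb, and 0 to 2. For the difference of the AA effects they numbered 1 with 10 HpaII tags in every library, 12 with DESeq2, 8 with no filter, 2 at 1 Mb, and 0 to 3. Between lines they numbered 19 with DESeq2, 4 with no filter, 1 at 1 Mb, and 0 to 2. Clusters between lines numbered 0 with 10 HpaII tags in every library, 7 with DESeq2, 3 with no filter, 0 thinned and 0 with any sample left out; for AA, DESeq2 called 1. The causes were not tested.

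The labels do not say whether the AA numbers pair the samples across lines. Over bins, the AA 1 less AA 2 deviations of 786 and 769 correlated at r from -0.04 to 0.01. Counting error in the bins could hide a pairing, so these values cannot exclude one. With the number as a replicate block, 100 kb calls were 1 for AA, 5 for AA in 769, 3 for AA in 786, 8 for the difference and 3 between lines. The MspI log2 difference of the arm, -0.87, is the same with this block by construction. Its p by an exact sign-flip test of the pairs was 0.25, the smallest that 3 pairs can give.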
